A study of Mus musculus with 15 samples.

Results

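Skin of C57BL/6 mice taken at day 3 of a wounding course was compared with skin taken at day 1 of the same course. The 6 libraries were chosen by the time their titles give, 3 at day 3 and 3 at day 1, of 15 libraries in all, the others being of day 0, day 5 and day 7. All 15 carry the same strain, the same tissue and a wound as the stress, the day 0 libraries too, and the labels used here give no genotype, drug, age or sex, nor the kind, size or place of the wound. Whether the 3 libraries of a day are separate animals is not in the labels, so each p-value speaks only for the spread among these samples, and that spread may be technical. The comparison addresses the passage from early inflammation towards the growth of new tissue.

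A skin wound first draws in neutrophils and monocytes through cytokines and chemokines, and the monocytes turn into macrophages that clear debris and dead cells. Keratinocytes then cover the surface, while fibroblasts and sprouting vessels build granulation tissue, a bed of collagen and other matrix proteins. Cells that secrete much protein rely on chaperones of the endoplasmic reticulum, where such proteins fold, and raise these chaperones through the unfolded protein response when folding lags behind synthesis.

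The day 3 libraries held 47373323 to 58558361 estimated counts and the day 1 libraries 55019712 to 59637266. Of 30281 genes, 17136 passed a filter on low counts and were tested. Levels are counts scaled to the library total times its TMM factor, which corrects for differences in composition (CPM, a normalised read count), and are not divided by transcript length, so levels of different genes are not compared. Rank correlations over all genes were 0.986 to 0.991 among the day 3 libraries, 0.979 to 0.990 among the day 1 libraries and 0.979 to 0.983 between the times. The keratin Krt14 of basal keratinocytes stood at 4935, 4299 and 5898 CPM in the day 3 libraries and at 2550.3, 2276 and 5441 CPM in the day 1 libraries, so the labelled tissue had its defining marker in all 6. Muscle and fat had been removed before freezing, per the labels, yet 12 genes of skeletal muscle fibres took 0.738% to 1.21% of the counts at day 3 and 0.755% to 1.03% at day 1. Transcripts of the mitochondrial genome took 5.34% to 6.30% at day 3 and 6.98% to 7.53% at day 1, without overlap, and the part of this share in the results was not tested. In bulk tissue, fewer cells of a type and less RNA per cell cannot be told apart.

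Over all 15 libraries, the quasi-likelihood test of edgeR, adjusted by Benjamini-Hochberg, called 1 gene of 17136 (0.00584%), which was Sdf2l1, lower at day 3, and 0 genes higher (0%). At an unadjusted edgeR p under 0.05 there were 1112 genes higher (6.49%) and 1087 lower (6.34%). All 3 day 3 libraries lay above all 3 day 1 libraries in 1993 genes (11.6%) and below them in 2270 genes (13.2%), and these shares are the background for the gene lists. The number of calls hung on which libraries of other times entered the fit. Day 0 replicate 1, day 5 replicate 2 and day 7 replicate 3 stand apart from the other libraries of their times. No stated rule chose them, so the fit without them is a description beside the main fit and no independent support. Day 1 replicates 1 and 3 correlated at 0.979, no higher than libraries of different times, and both were kept. A fit to the remaining 12 libraries called 831 of 17264 genes (4.81%), 404 higher (2.34%) and 427 lower (2.47%). The common biological coefficient of variation was 20.4% in that fit, against 30.9% over 15 libraries. DESeq2, another count test, called 470 genes over the 15 libraries (2.74%), 209 higher (1.22%) and 261 lower (1.52%). Of these, 343 genes were also called in the 12-library fit. Both fits compare the same 6 libraries of day 3 and day 1, so this overlap is no independent support. A fit to the 6 libraries of day 3 and day 1 alone called 2 genes, Ccr1 and Tfrc, both lower. Its common coefficient of variation was 21.1%, near that of the 12-library fit. For the genes described in most detail, the adjusted p of the 15-library fit stands beside that of the 12-library fit.

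**Figure D1:**
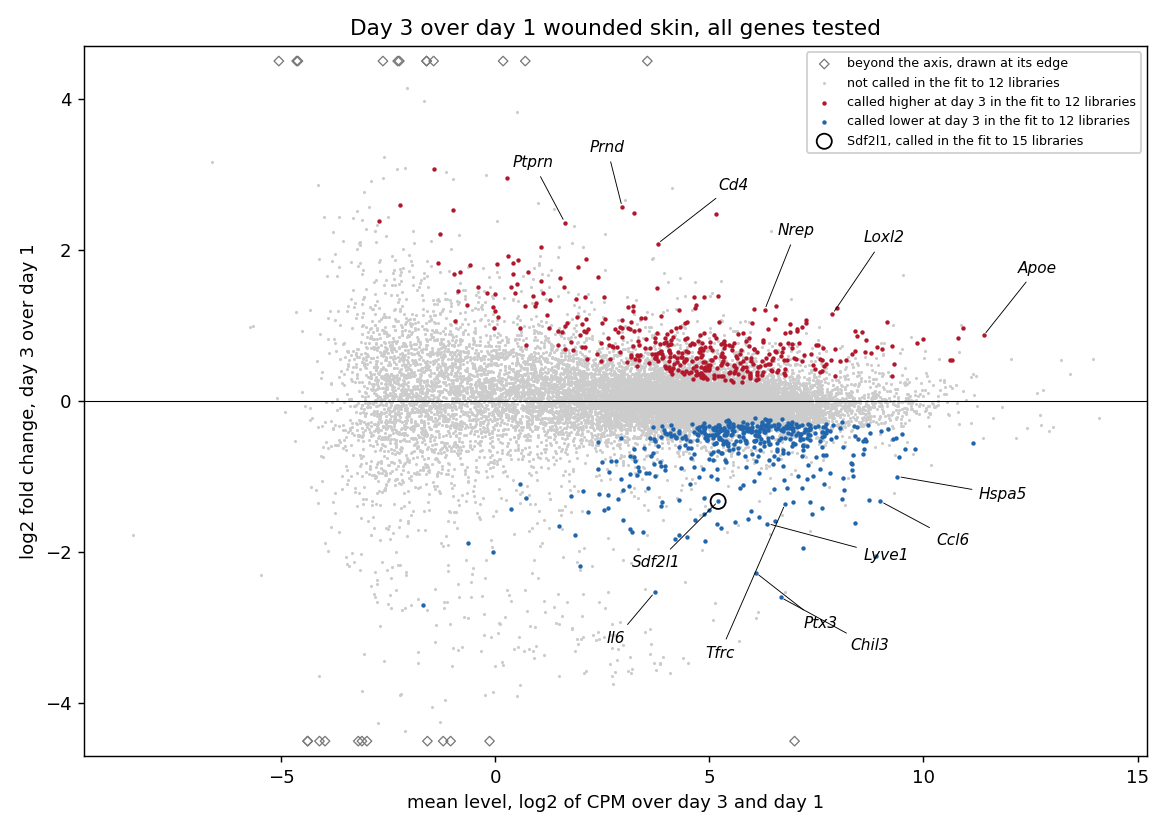
Log2 fold change of day 3 over day 1 (vertical axis) against the mean level (horizontal axis, log2 of CPM) for 17135 genes, with genes called in the 12-library fit in red (higher at day 3) and blue (lower) and Sdf2l1 circled. Red and blue genes spread over most of the range of levels, and 24 genes beyond 4.5 on the log2 scale are drawn at the edge, 0 of them called in that fit.

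Sdf2l1, a protein of the endoplasmic reticulum that works with its chaperones, fell at day 3. It had 20.3, 23.8 and 18.96 CPM in the day 3 libraries, against 56.3, 59.9 and 42.1 CPM in the day 1 libraries. The day 3 libraries lay close together and all well under the lowest day 1 library, day 1 replicate 3. The log2 fold change was -1.33 ± 0.13 (SE), a 2.51-fold lower level, with an edgeR adjusted p = 0.00434 (0.00639 in the 12-library fit). Without day 3 replicate 1 the gene missed the threshold with an edgeR adjusted p = 0.0680, without day 3 replicate 3 with 0.0598, and in the fit to the 6 libraries alone with 0.0557. The log2 fold change lay between -1.32 and -1.26 in these fits.

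The next question was whether other genes of protein folding in that compartment moved with Sdf2l1, and 43 of them were listed after the values were seen, so their counts describe and support nothing. Of 42 tested, 1 was called, and 24 had all day 3 libraries below all day 1 libraries (background 13.2%). Only 1, the exchange factor Sil1, had them all above (background 11.6%). In the 12-library fit 19 were called lower (background 2.47%) and 0 higher (background 2.34%). The median log2 fold change was -0.36, against -0.01 over all genes tested, and the summed level of the list was 6559 to 7014 CPM in the day 3 libraries and 8294 to 9507 CPM in the day 1 libraries. The group was lower at day 3 in every library, with large differences among its members.

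Hspa5 encodes BiP, the main Hsp70-type chaperone of the endoplasmic reticulum. Its level was 396, 462 and 488 CPM at day 3 and 1008, 961 and 720.0 CPM at day 1. Every day 3 library was lower than every day 1 library, and the fold change was 2.00-fold lower (edgeR adjusted p = 0.103, and 0.0134 in the 12-library fit). Calr, a chaperone that binds calcium and sugar chains, had 478, 615 and 463 CPM at day 3 and 960.5, 867 and 778 CPM at day 1. Hsp90b1, the Hsp90-type chaperone of the same compartment, had 537, 632 and 626 CPM at day 3 and 954, 954 and 873 CPM at day 1. Neither gene's libraries overlapped between the times, and their edgeR adjusted p-values were 0.103 and 0.104 (0.0167 and 0.0125 in the 12-library fit).

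Among genes known for their induction by folding stress, Creld2 had 26.4, 25.6 and 24.2 CPM at day 3 and 50.9, 53.8 and 37.4 CPM at day 1 (edgeR adjusted p = 0.0775, and 0.00981 in the 12-library fit). Manf, a stress-released trophic protein, averaged 75.3 ± 3.204 CPM at day 3 and 137 ± 21.3 CPM at day 1 (SD, n = 3 each), and Hyou1, a large Hsp70-type chaperone, 64.8 ± 5.27 and 116 ± 25.5 CPM. Both were called lower in the 12-library fit (edgeR adjusted p = 0.00793 and 0.0163), not over 15 libraries (0.103 and 0.104), and neither overlapped between the times. Day 1 replicate 3 was the lowest of its time for Sdf2l1, Hspa5, Creld2, Manf, Hyou1, Calr and Hsp90b1.

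The transcription factors of the response differed less. Xbp1, whose spliced form drives chaperone genes, had 199, 189 and 194 CPM at day 3 and 274, 259 and 230.1 CPM at day 1, a 1.31-fold lower level (edgeR adjusted p = 0.253, and 0.0256 in the 12-library fit). Gene counts do not separate its spliced from its unspliced form. Atf4 and Ddit3, which act in the branch that slows translation, had overlapping libraries, with 168 ± 10.5 and 12.4 ± 0.929 CPM at day 3 and 193 ± 26.5 and 14.6 ± 2.45 CPM at day 1. The stress sensor Ern1 averaged 32.9 ± 0.785 CPM at day 3 and 31.4 ± 3.27 CPM at day 1, and Herpud1, of the degradation machinery, 71.4 ± 10.33 and 74.1 ± 10.4 CPM. Their edgeR adjusted p-values lay between 0.596 and 0.938.

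**Figure D2:**
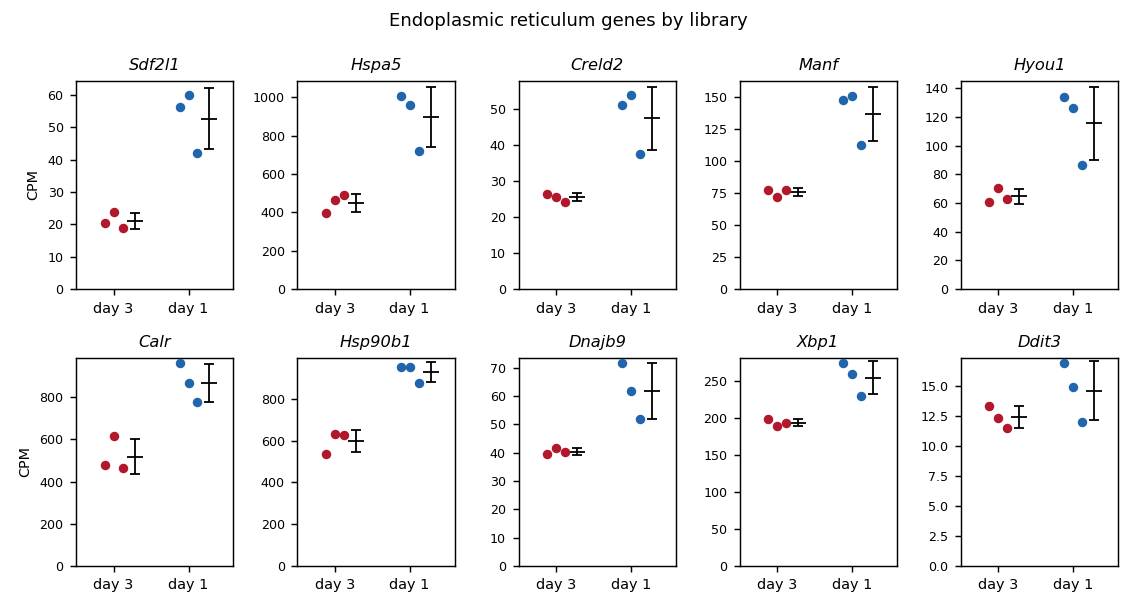
CPM of 10 genes of the endoplasmic reticulum in each library (points, day 3 in red, day 1 in blue), with the mean and SD of the 3 libraries of a time in black. The day 3 points lie under all day 1 points in 9 panels, and Ddit3 is the exception.

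Chaperone genes of this compartment are known for a promoter element made of CCAAT, 9 bases of any kind and CCACG, which is read by factors of the unfolded protein response. It was searched on both strands in RefSeq promoters of the mouse build GRCm38.p6, from 250 bases before to 50 bases after each gene's start, and 34 of the 43 listed genes had such a window. The element was in 39 of all 32851 windows (0.119%) and in windows of 9 of the 34 genes (26.5%). All 9 were tested, and in 9 of 9 the day 3 libraries lay below the day 1 libraries, as they did in 11 of 24 tested genes with a window and no match. A shorter element, ATTGG, 1 base and CCACG, was in 12 windows (0.0365%), among them those of Dnajb11 and Herpud1, and of the listed genes none had both. A match describes letters, and both the list and the search were chosen after the values were seen.

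The promoters of the 4 genes with a match that are described above are printed with that of Sdf2l1, to show where the element lies in chaperone genes that differed together and the window of the gene that differed most without one. Each is the 250 bases before the gene's start, 5′ to 3′ on the gene's own strand, with the fixed letters of each match in capitals (CCAAT and CCACG, or CGTGG and ATTGG where the match is on the other strand). Hspa5 is at chr2:34771840-34772089 (plus strand), Hsp90b1 at chr10:86705445-86705694 (minus), Calr at chr8:84846932-84847181 (minus), Creld2 at chr15:88819396-88819645 (plus) and Sdf2l1 at chr16:17132384-17132633 (minus).
Hspa5: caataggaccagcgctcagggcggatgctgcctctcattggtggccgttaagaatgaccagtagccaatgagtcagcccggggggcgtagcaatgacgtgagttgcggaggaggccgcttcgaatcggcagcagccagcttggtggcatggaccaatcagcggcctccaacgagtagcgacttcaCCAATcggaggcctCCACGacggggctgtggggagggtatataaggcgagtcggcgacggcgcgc
Hsp90b1: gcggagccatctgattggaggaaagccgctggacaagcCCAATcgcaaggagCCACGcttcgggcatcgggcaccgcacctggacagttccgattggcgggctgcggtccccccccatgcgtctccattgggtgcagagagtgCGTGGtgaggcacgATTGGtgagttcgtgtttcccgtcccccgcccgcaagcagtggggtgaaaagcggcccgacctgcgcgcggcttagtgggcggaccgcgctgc
Calr: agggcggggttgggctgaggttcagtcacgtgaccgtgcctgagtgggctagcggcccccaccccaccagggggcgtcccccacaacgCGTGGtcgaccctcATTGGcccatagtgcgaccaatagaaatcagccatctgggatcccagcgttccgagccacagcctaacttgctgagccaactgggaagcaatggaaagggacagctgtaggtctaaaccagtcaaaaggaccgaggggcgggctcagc
Creld2: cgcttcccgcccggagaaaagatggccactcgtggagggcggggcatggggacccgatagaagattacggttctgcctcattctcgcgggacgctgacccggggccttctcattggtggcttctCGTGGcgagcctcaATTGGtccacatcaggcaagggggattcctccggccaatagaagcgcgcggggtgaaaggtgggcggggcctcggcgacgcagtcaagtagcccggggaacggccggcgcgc
Sdf2l1: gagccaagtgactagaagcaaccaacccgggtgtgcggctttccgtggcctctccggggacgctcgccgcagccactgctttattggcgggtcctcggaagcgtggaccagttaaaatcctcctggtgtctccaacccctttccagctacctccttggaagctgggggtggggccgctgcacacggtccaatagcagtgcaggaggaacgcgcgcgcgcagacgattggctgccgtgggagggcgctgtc
The match lay 65 bases before the start in Hspa5, 162 in Calr and 126 in Creld2. Hsp90b1 held 2 matches, 212 bases before the start on its own strand and 107 on the other. The Sdf2l1 window had none, its nearest stretch differing in 2 letters.

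Genes of the early inflammatory signal were lower at day 3 throughout. Of 25 inflammatory cytokines and chemokines, all 25 had a fold change below 0 on the log2 scale, 15 had all day 3 libraries below all day 1 libraries (background 13.2%) and 0 had them above. None was called over 15 libraries and 6 were called lower in the 12-library fit, where 2.47% of all genes were. The median was -1.51, against -0.01 over all genes, and the summed level was 683 to 845 CPM at day 3 and 1395 to 2321 CPM at day 1. The size differed widely between members, from -2.53 for Il6 to -0.02 at the other end.

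Ptx3, a soluble pattern recognition protein made at sites of inflammation, had 30.2, 23.3 and 16.4 CPM in the day 3 libraries and 119, 112 and 106 CPM in the day 1 libraries. The groups stood far apart and the day 1 libraries were close to each other. The 4.83-fold lower level had an edgeR adjusted p = 0.0775 (0.00639 in the 12-library fit). Il6, an inflammatory cytokine, had 3.62, 4.32 and 3.75 CPM at day 3 and 34.9, 17.8 and 14.9 CPM at day 1. Here the day 3 libraries lay close together and day 1 replicate 1 was far above the other day 1 libraries (edgeR adjusted p = 0.137, and 0.00793 in the 12-library fit). Il1b, the cytokine that starts much of the cascade, had 168, 122 and 128 CPM at day 3 and 448, 239 and 235 CPM at day 1, with an edgeR adjusted p = 0.615 (0.236 in the 12-library fit). Day 1 replicate 1 was again the highest, as for the neutrophil-drawing chemokine Cxcl2 with 38.4, 26.5 and 51.7 CPM at day 3 and 228, 81.8 and 84.2 CPM at day 1, and for the prostaglandin synthase Ptgs2 with 27.4 ± 4.44 CPM at day 3 and 59.4 ± 32.3 CPM at day 1.

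The CC chemokines, a family that draws monocytes and other leukocytes and was listed after the values were seen, were mixed. Of 18, 7 had all day 3 libraries below (background 13.2%), 0 had them above (background 11.6%) and 11 overlapped. A positive fold change was found in 7, among them the monocyte attractant Ccl8. Ccl8 averaged 504 ± 139.7 CPM at day 3 and 478 ± 92.2 CPM at day 1. Ccl2 had 29.9, 63.7 and 44.4 CPM at day 3 and 167, 146 and 102 CPM at day 1, and Ccl7 averaged 60.5 ± 15.02 CPM at day 3 and 232 ± 72.6 CPM at day 1. Both were called lower in the 12-library fit (edgeR adjusted p = 0.0177 and 0.0121) and not over 15 libraries (0.219 and 0.166). Ccl6 and Ccl9, chemokines of myeloid cells in the mouse, differed more evenly between libraries. Ccl6 had 314, 312 and 247 CPM at day 3 and 829, 753 and 608 CPM at day 1, and Ccl9 141, 208 and 174 CPM at day 3 and 455, 432 and 298 CPM at day 1. Their edgeR adjusted p-values were 0.0775 each over 15 libraries, and 0.00793 and 0.0106 over 12. Ccl19, whose close genomic copies leave its value uncertain, was 3.23-fold lower (edgeR adjusted p = 0.104, and 0.0360 in the 12-library fit).

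Of 14 genes that restrain inflammation, 12 had a negative fold change. All day 3 libraries lay below in 3 (background 13.2%) and above in 1 (background 11.6%). The 12-library fit called 2 lower (background 2.47%). The median was -0.32, and the summed level was 1495 to 1847 CPM at day 3 and 1897 to 2212 CPM at day 1. Socs3, the inhibitor of Il6-type signals, had 96.8, 109.7 and 96.9 CPM at day 3 and 257, 206 and 159 CPM at day 1 (edgeR adjusted p = 0.282, and 0.0131 in the 12-library fit). Nfkbia, the inhibitor of NF-kappaB, overlapped, with 82.9 ± 7.83 CPM at day 3 and 95.9 ± 20.4 CPM at day 1. Of 14 interferon-response genes, 6 had all day 3 libraries below and 0 above, and 4 were called lower in the 12-library fit, beside the same shares. The antiviral enzyme Rsad2 had 28.04, 40.2 and 41.3 CPM at day 3 and 111, 106 and 99.6 CPM at day 1 (edgeR adjusted p = 0.124, and 0.00793 in the 12-library fit), and Cxcl10, a chemokine of activated T cells, was 2.81-fold lower. Irf7 of the same list, a factor that drives interferon genes, had a fold change of -0.11 on the log2 scale, with overlapping libraries.

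Neutrophil markers leaned lower at day 3. Of 20, 18 had a negative fold change, with a median of -1.10. All day 3 libraries lay below all day 1 libraries in 13 (background 13.2%) and above in 0 (background 11.6%). Over 15 libraries 0 were called, and in the 12-library fit 2 were called lower, Cd177 and Cxcr2 (background 2.47%). Cxcr2, the receptor that guides neutrophils, had 45.6, 36.9 and 18.5 CPM at day 3 and 107, 78.0 and 91.5 CPM at day 1 (edgeR adjusted p = 0.432, and 0.0232 in the 12-library fit). The calcium-binding alarmins S100a8 and S100a9, abundant in neutrophils and in wound keratinocytes, overlapped between the times, with 271, 174 and 160.2 CPM of S100a8 at day 3 and 265, 193 and 312 CPM at day 1. The summed level of the 20 markers was 742 to 1283 CPM at day 3 and 1296 to 1851 CPM at day 1. As a share of counts without TMM scaling the times overlapped, at 0.0717% to 0.130% at day 3 and 0.129% to 0.186% at day 1, and the part of fewer neutrophils in the lower cytokine levels was not tested.

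Macrophage markers were more often higher than lower at day 3. Of 18 monocyte and macrophage markers, 10 had all day 3 libraries above all day 1 libraries (background 11.6%) and 3 below, and 5 were called higher in the 12-library fit (background 2.34%). The higher ones included Csf1r, the receptor for the macrophage growth factor, with 454, 423 and 450.2 CPM at day 3 and 199.6, 208 and 290.0 CPM at day 1 (edgeR adjusted p = 0.214, and 0.0114 in the 12-library fit). Apoe, a lipid carrier made by macrophages, had 3433, 3409 and 3687 CPM at day 3 and 1691, 1617 and 2458 CPM at day 1 (edgeR adjusted p = 0.106, and 0.0163 in the 12-library fit). In both genes day 1 replicate 3 was the day 1 library nearest to day 3. Mertk, a receptor for the uptake of dying cells, was 1.64-fold higher and Trem2, a lipid receptor of macrophages, 3.00-fold higher, with edgeR adjusted p-values of 0.206 and 0.237, and 0.0252 and 0.0691 in the 12-library fit. The 3 markers with all day 3 libraries below were Ly6c2, Cd14 and Fcgr1, at -1.003, -0.69 and -0.50 on the log2 scale, and the 12-library fit called none of them (edgeR adjusted p = 0.286, 0.173 and 0.188).

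Genes of alternative macrophage activation pointed both ways. Chil3, a chitinase-like protein of mouse myeloid cells with a close copy in the genome, had 15.5, 48.1 and 22.7 CPM at day 3 and 202, 169 and 151 CPM at day 1, a 6.05-fold lower level (edgeR adjusted p = 0.219, and 0.0131 in the 12-library fit). Il4ra, the receptor subunit for interleukin-4, was 2.00-fold lower (edgeR adjusted p = 0.149, and 0.0252 in the 12-library fit). Arg1, the arginase of these cells, overlapped, with 124, 65.6 and 92.1 CPM at day 3 and 43.2, 39.3 and 89.3 CPM at day 1. In all, 3 of 12 had their day 3 libraries above (background 11.6%) and 3 below (background 13.2%). Among 7 markers of macrophages resident in the dermis, Lyve1, which also marks lymphatic vessels, had 52.4, 38.1 and 30.1 CPM at day 3 and 142, 132 and 97.2 CPM at day 1 (edgeR adjusted p = 0.0775, and 0.0109 in the 12-library fit). Folr2, another of the 7, had a fold change of 0.36 on the log2 scale with overlapping libraries. Fcrls, a receptor of resident macrophages in the mouse, had 132, 133 and 112 CPM at day 3 and 49.7, 66.2 and 62.1 CPM at day 1, without overlap, and the scavenger receptor Msr1 was 2.23-fold lower, both with an edgeR adjusted p = 0.103 (0.00639 and 0.0157 in the 12-library fit).

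Lymphocyte and antigen-presentation genes had more positive than negative fold changes at day 3. Over all genes, the day 3 libraries lay all above in 11.6% and all below in 13.2%. Of 15 T and NK cell genes tested, 6 had all day 3 libraries above and 0 below, 14 had a positive fold change, and their summed level was 76.5 to 87.4 CPM at day 3 and 46.9 to 48.0 CPM at day 1. Cd4, the co-receptor of helper T cells that mouse macrophages and dendritic cells can also carry, had 34.2, 16.6 and 16.4 CPM at day 3 and 4.67, 4.63 and 6.56 CPM at day 1 (edgeR adjusted p = 0.104, and 0.00924 in the 12-library fit). Day 3 replicate 1 was the highest, and all 3 were above every day 1 library. Cd4 averaged 22.4 CPM at day 3 and 5.29 CPM at day 1, and so made up a large part of the difference in summed level. Cd28, the co-stimulatory receptor of T cells, had 5.52, 5.92 and 6.22 CPM at day 3 and 1.27, 1.22 and 2.66 CPM at day 1 (edgeR adjusted p = 0.133, and 0.0142 in the 12-library fit). The T cell receptor chains Cd3e and Trbc1, which define T cells, overlapped between the times, at 0.31 and 0.18 on the log2 scale. Of 12 dendritic and Langerhans cell genes, 7 had all day 3 libraries above, including the class II gene H2-Aa with 448 ± 84.3 CPM at day 3 and 248 ± 41.2 CPM at day 1, while the Langerhans cell marker Cd207 had -0.03. Of 9 B and plasma cell genes, 2 had all day 3 libraries above, 1 had them all below and 6 overlapped. Their median was 0.27, and 3 had a negative fold change. Cd79b and Ighm were called higher in the 12-library fit (edgeR adjusted p = 0.0167 and 0.0464) and not over 15 libraries (0.126 and 0.215). The 12-library fit called 2.34% of all genes higher, and 0 of 7 mast cell genes were called in it.

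**Figure D3:**
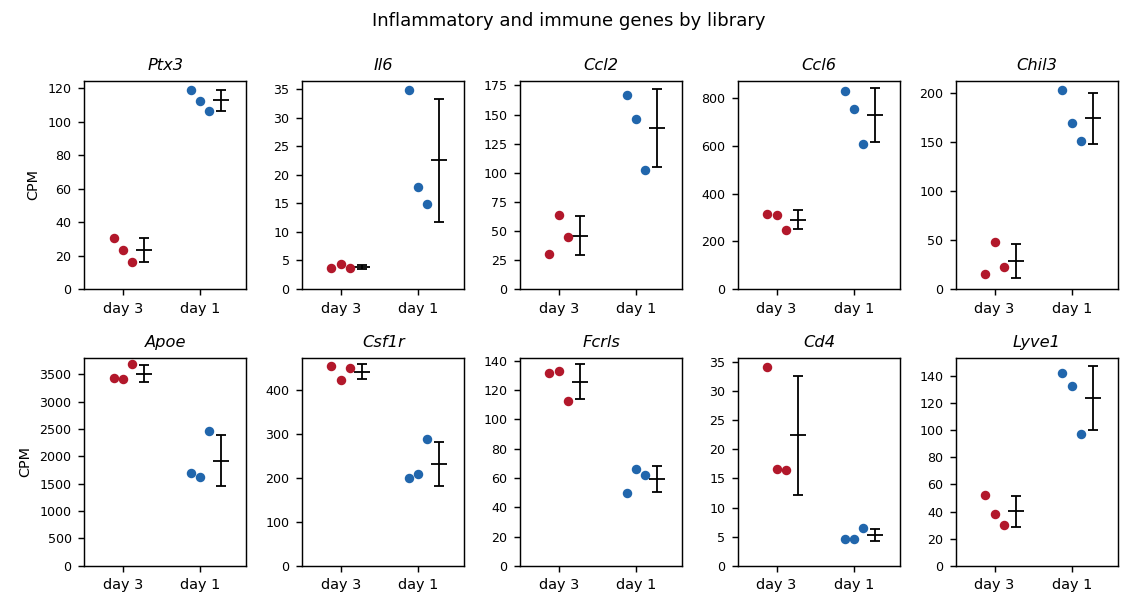
CPM of 10 inflammatory and immune genes in each library (points, day 3 in red, day 1 in blue), with mean and SD in black. Ptx3, Il6, Ccl2, Ccl6, Chil3 and Lyve1 were lower in all day 3 libraries, and Apoe, Csf1r, Fcrls and Cd4 higher.

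Many matrix genes were higher at day 3. Of 29 genes of matrix synthesis, 25 had a positive fold change, 13 overlapped between the times, 14 had all day 3 libraries above all day 1 libraries (background 11.6%) and 2 below, 7 were called higher and 1 lower in the 12-library fit, and the median was 0.55. Their summed level overlapped, at 42986 to 82023 CPM at day 3 and 32046 to 63069.8 CPM at day 1. Loxl2, an enzyme that cross-links collagen, had 318, 290.4 and 362 CPM at day 3 and 121, 162 and 154 CPM at day 1 (edgeR adjusted p = 0.0879, and 0.00793 in the 12-library fit). Col5a1, a chain of the collagen that seeds fibrils, had 729, 672 and 901 CPM at day 3 and 307, 409 and 395 CPM at day 1 (edgeR adjusted p = 0.1495, and 0.0114 in the 12-library fit). The times were well apart in both genes. Cthrc1, secreted by activated fibroblasts, was 2.40-fold higher, and the other type V chains Col5a2 and Col5a3 were 1.71-fold and 2.04-fold higher. Col1a1, the main fibrillar collagen, overlapped, with 10126, 7171 and 16677 CPM at day 3 and 7247, 11685 and 4443 CPM at day 1, and so did Col3a1 and the wound matrix protein Tnc. Col12a1 had all day 3 libraries above, but day 3 replicate 3 at 179 CPM was only just over day 1 replicate 3 at 174 CPM (edgeR adjusted p = 0.412).

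Thbs1 was the 1 matrix gene called lower in the 12-library fit (edgeR adjusted p = 0.0167, and 0.292 over 15 libraries). This matrix protein, released by platelets and early wound cells, had 292, 233 and 211 CPM at day 3 and 852, 504 and 463 CPM at day 1, while its relative Thbs2 averaged 492 ± 91.3 CPM at day 3 and 261 ± 54.9 CPM at day 1. Of 20 matrix proteases and inhibitors, 3 had all day 3 libraries above (background 11.6%) and 5 below (background 13.2%). The 12-library fit called 1 of them higher (background 2.34%) and 2 lower (background 2.47%). The aggrecan-cleaving proteases Adamts1 and Adamts5 were 2.21-fold and 1.99-fold lower, and Mmp14, a membrane-bound collagenase, 1.65-fold higher, with edgeR adjusted p-values of 0.183, 0.104 and 0.278, and 0.0178, 0.0183 and 0.0346 in the 12-library fit. The fibroblast receptor Pdgfra had 275, 194 and 205 CPM at day 3 and 470.4, 483 and 318 CPM at day 1 (edgeR adjusted p = 0.106, and 0.0219 in the 12-library fit). Of 15 markers of resting fibroblasts, which include it, 3 had all day 3 libraries above and 2, Pdgfra and the surface protein Ly6a, below. These counts are near the shares over all genes. Ly6a had 437, 452 and 525 CPM at day 3 and 676, 880.0 and 564 CPM at day 1 (edgeR adjusted p = 0.261, and 0.0517 in the 12-library fit). The matrix proteoglycans Dcn and Lum overlapped, at -0.08 and -0.05 on the log2 scale.

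Contractile genes were slightly higher. All 11 had a positive fold change and 4 had all day 3 libraries above (background 11.6%). The 12-library fit called 3 higher (background 2.34%), and DESeq2 called 0. Acta2, the actin of myofibroblasts and vessel walls, had 208, 249 and 230.1 CPM at day 3 and 149, 162 and 158 CPM at day 1, with an edgeR adjusted p = 0.0126 in the 12-library fit and 0.431 over 15 libraries. Cnn1, of differentiated smooth muscle, overlapped.

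Many genes of blood vessels were higher at day 3. Of 18, 9 had all day 3 libraries above (background 11.6%), 9 overlapped and 0 lay below (background 13.2%). A positive fold change was found in 17, and the median was 0.53. An unadjusted edgeR p under 0.05 was found in 8, all higher (background 6.49%). Robo4, an endothelial guidance receptor, had 16.9, 20.3 and 16.6 CPM at day 3 and 10.4, 8.23 and 10.2 CPM at day 1 (edgeR adjusted p = 0.183, and 0.00981 in the 12-library fit). Clec14a, an endothelial lectin outside the list, had 32.0, 33.9 and 23.7 CPM at day 3 and 13.2, 12.6 and 17.4 CPM at day 1 (edgeR adjusted p = 0.106, and 0.0131 in the 12-library fit). The sprouting peptide Apln overlapped, as day 3 replicates 1 and 3 with 23.4 and 22.6 CPM were level with day 1 replicate 1 at 23.3 CPM. The vessel growth factor Vegfa and its receptor Flt1 had 0.01 and -0.07 on the log2 scale.

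Of 22 growth factors of repair, 4 had all day 3 libraries above (background 11.6%), 6 below (background 13.2%) and 12 overlapped, with a median of -0.03. Fgf7, which fibroblasts make to stimulate keratinocytes, had 37.0, 34.6 and 31.8 CPM at day 3 and 48.0, 59.97 and 47.4 CPM at day 1, a small and even difference, 1.504-fold lower (edgeR adjusted p = 0.0775, and 0.0184 in the 12-library fit). Its relative Fgf10 was 1.73-fold lower, and Hbegf, a ligand of the EGF receptor, 1.69-fold lower. Pdgfb, which draws pericytes to vessels, had 29.7, 42.8 and 29.5 CPM at day 3 and 21.1, 17.4 and 20.4 CPM at day 1 (edgeR adjusted p = 0.149, and 0.0184 in the 12-library fit).

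Epidermal and cell division genes did not separate the times. Krt6a, a keratin of the wound edge with a near-identical copy in Krt6b, had 2299, 1993 and 2366 CPM at day 3 and 1245, 931 and 2078 CPM at day 1, so that day 1 replicate 3 lay within the day 3 range. Mki67, a marker of dividing cells, had 121, 135 and 131 CPM at day 3 and 60.6, 102 and 148 CPM at day 1. Day 1 replicate 3 was above all day 3 libraries for Mki67, and the times overlapped for all 22 genes of mitosis even though all 22 had a positive fold change. The summed mitosis level was 817 to 1005 CPM at day 3 and 376 to 964 CPM at day 1. DNA replication genes had a median of -0.09 over 20 genes. Of 20 wound-edge, 12 basal and 18 differentiated epidermal genes, the day 3 libraries lay all above in 1, 0 and 0 and all below in 4, 1 and 1. The shares over all genes were 11.6% above and 13.2% below.

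Hair follicle genes had a list median of -3.04, yet 0 of 18 separated the times and 0 were called in either fit. Tchh, of the inner root sheath, had 11.99, 21.9 and 62.3 CPM at day 3 and 12.9, 192 and 349 CPM at day 1, so that day 1 replicates 2 and 3 were high and day 1 replicate 1 was level with day 3. The list took 0.00353% to 0.0178% of the counts at day 3 and 0.00385% to 0.120% at day 1.

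**Figure D4:**
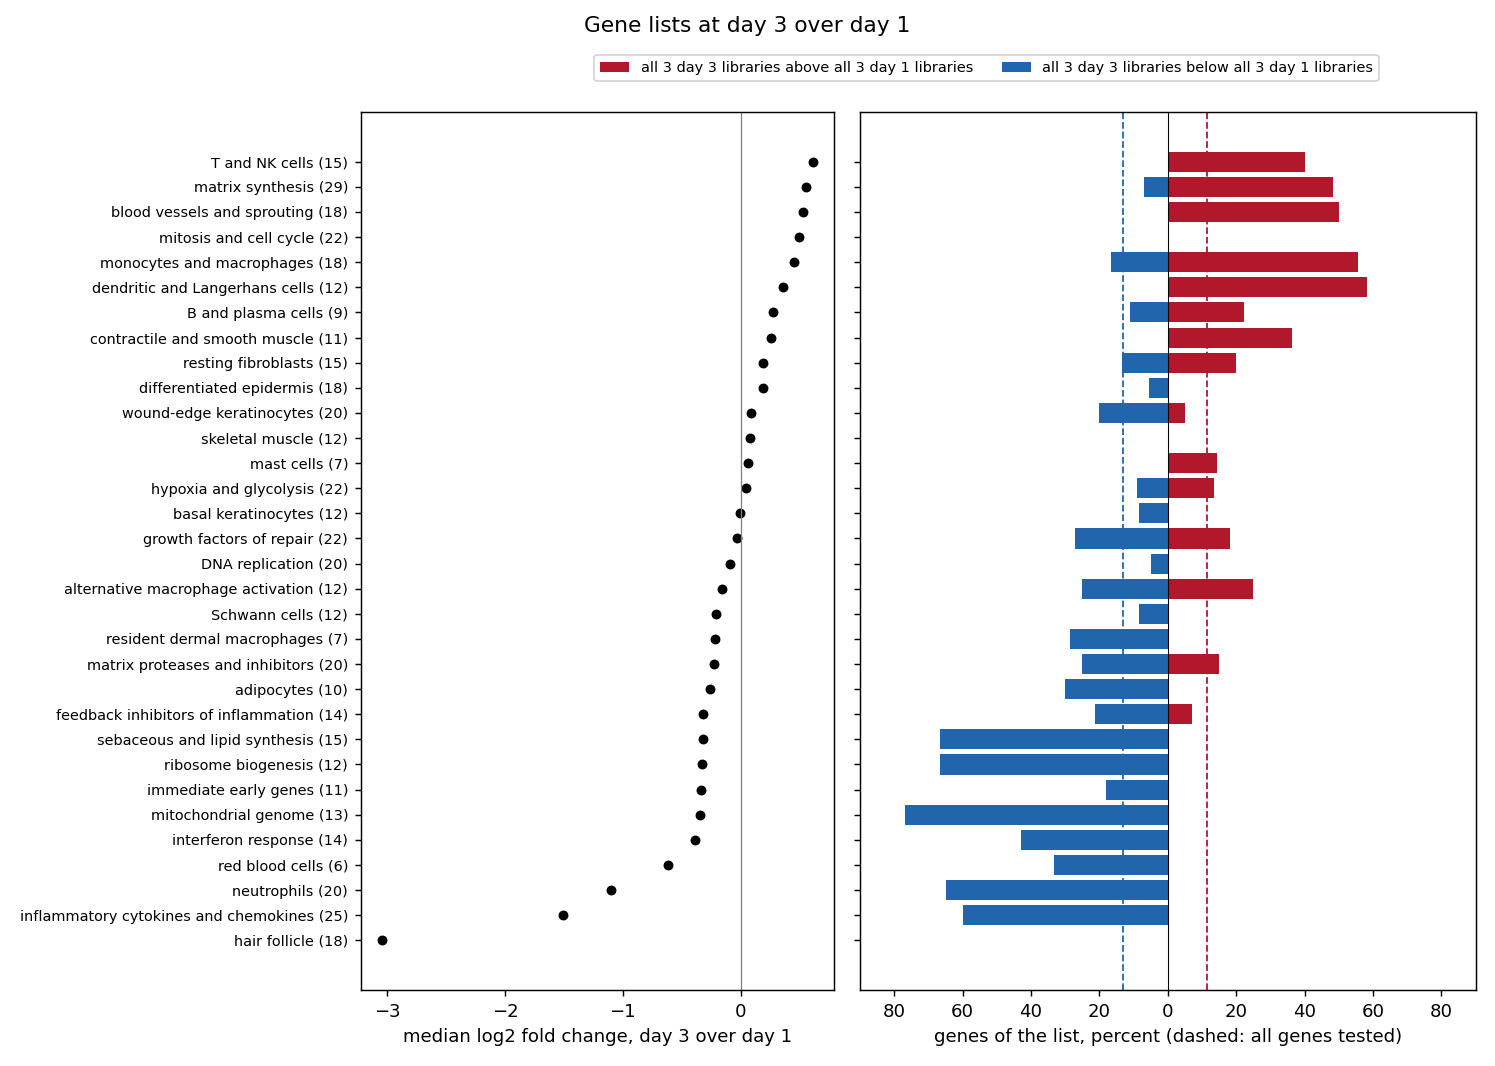
For 32 gene lists with the number of genes tested in brackets, the median log2 fold change of day 3 over day 1 (left) and the percent of genes whose day 3 libraries all lay above (red, right) or below (blue, left) the day 1 libraries, with dashed lines at the shares over all genes, 11.6% and 13.2%. Dendritic, macrophage, vessel and matrix lists reach farthest past the red line and mitochondrial, lipid, ribosome biogenesis, neutrophil and cytokine lists farthest past the blue one, several other lists pass a line by less, and the hair list has the lowest median and no separated gene.

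Metabolic groups were mostly lower, hypoxia and glycolysis excepted. Over all genes, 13.2% had all day 3 libraries below, and the 12-library fit called 2.47% lower. Of 15 lipid synthesis genes, 10 had all day 3 libraries below and 0 above. The 12-library fit called 4 lower and DESeq2 2. Of 12 genes of ribosome biogenesis, 8 had all day 3 libraries below and all 12 had a negative fold change, of -0.21 to -0.72. The 12-library fit called 4 of them lower and DESeq2 0. Nop58, which modifies ribosomal RNA, had 64.4, 72.2 and 68.7 CPM at day 3 and 118, 119.6 and 101 CPM at day 1 (edgeR adjusted p = 0.356, and 0.00793 in the 12-library fit). All 13 protein genes of the mitochondrial genome had negative fold changes, 10 with all day 3 libraries below, among them mt-Nd1 with 3231, 4086 and 4049 CPM at day 3 and 5551, 5402 and 4979 CPM at day 1 (edgeR adjusted p = 0.205, and 0.0751 in the 12-library fit). Of 22 hypoxia and glycolysis genes, 15 had a positive fold change, with a median of 0.05 on the log2 scale. Among them 3 separated above (background 11.6%) and 2 below, and 0 were called in the 12-library fit.

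In the remaining lists, beside a background of 13.2% for day 3 libraries all below, some genes were separated. Of 11 immediate early genes 2 had all day 3 libraries below, of 12 Schwann cell genes 1, of 10 adipocyte genes 3, of 6 red cell genes 2, and of 12 skeletal muscle genes 0. All 6 red cell genes had a negative fold change, with a median of -0.62. None of them had a member with all day 3 libraries above, and 0 members were called in the 12-library fit.

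Some of the highest-ranked genes belonged to none of the lists above. Prnd, the prion-like protein doppel, had 11.46, 17.7 and 10.8 CPM at day 3 and 2.44, 1.59 and 2.71 CPM at day 1, a 5.93-fold higher level (edgeR adjusted p = 0.0775, and 0.00793 in the 12-library fit). Ptprn, a phosphatase-like protein of secretory granules, was 5.15-fold higher, with 3.87, 7.29 and 4.33 CPM at day 3 and 1.05, 0.743 and 1.21 CPM at day 1 (edgeR adjusted p = 0.0775, and 0.00793 in the 12-library fit). Day 3 replicate 2 was the highest library in both. Nrep, a small protein described in neurons and fibroblasts, had 105, 103 and 120.3 CPM at day 3 and 33.2, 49.3 and 59.6 CPM at day 1 (edgeR adjusted p = 0.0775, and 0.0107 in the 12-library fit). Tfpi2, a serine protease inhibitor of the matrix, Tmem158, a membrane protein induced by Ras, and Chp2, a calcium-binding partner of sodium-proton exchangers, were 2.14-fold to 2.59-fold higher. Tfrc, the transferrin receptor of iron uptake, had 53.5, 63.6 and 66.5 CPM at day 3 and 147, 165 and 160.0 CPM at day 1, which the 12-library fit called with an edgeR adjusted p = 0.00453 (0.103 over 15 libraries). Its 3 libraries of each time were close together, and it was called in the 6-library fit too. Chl1, a neural adhesion protein, Alpl, an alkaline phosphatase, Gda, a guanine deaminase, Stx11, a syntaxin of immune cells, and Togaram2 were 2.00-fold to 2.97-fold lower without overlap, as was Ifi205, whose close family members leave its value uncertain.

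Placed in the whole course, the genes took different paths. Sdf2l1 averaged 30.1, 52.7, 21.0, 22.2 and 27.96 CPM at day 0, 1, 3, 5 and 7, so that day 1 stood above all other times, and Hspa5 averaged 421, 897, 449, 465 and 629 CPM. Ptx3 averaged 5.97, 113, 23.3, 5.28 and 8.21 CPM, with day 3 still above day 0. Lyve1 averaged 72.1, 124, 40.2, 33.2 and 26.6 CPM, and Tfrc 67.0, 157, 61.2, 64.4 and 80.7 CPM. Among genes higher at day 3, Loxl2 averaged 253, 146, 323, 258 and 269.6 CPM and Apoe 3497, 1922, 3509.7, 3864 and 3948 CPM, so day 1 was their lowest time. Prnd, with 4.02, 2.25, 13.3, 14.8 and 14.9 CPM, stayed above its day 0 and day 1 levels to the end of the course. Exons of Cd3e, Col15a1, Col3a1, Col5a1, Csf1r, Cxcl10, Ddit3, Fgf10, Folr2, Glb1, Hsp90b1 and Il1b overlap those of another gene in the GENCODE mouse annotation. So do exons of Il4ra, Irf7, Krt6a, Loxl2, Manf, Mest, Mt2, Nop58, Pdgfra, Prnd, Ptprn, Sil1, Thbs1, Tnc, Togaram2 and mt-Nd1. Whether the quantification used strand is not given, so the values of all these genes are uncertain to that extent. The means above are descriptions, with day 0 replicate 1, day 5 replicate 2 and day 7 replicate 3 included.

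**Figure D5:**
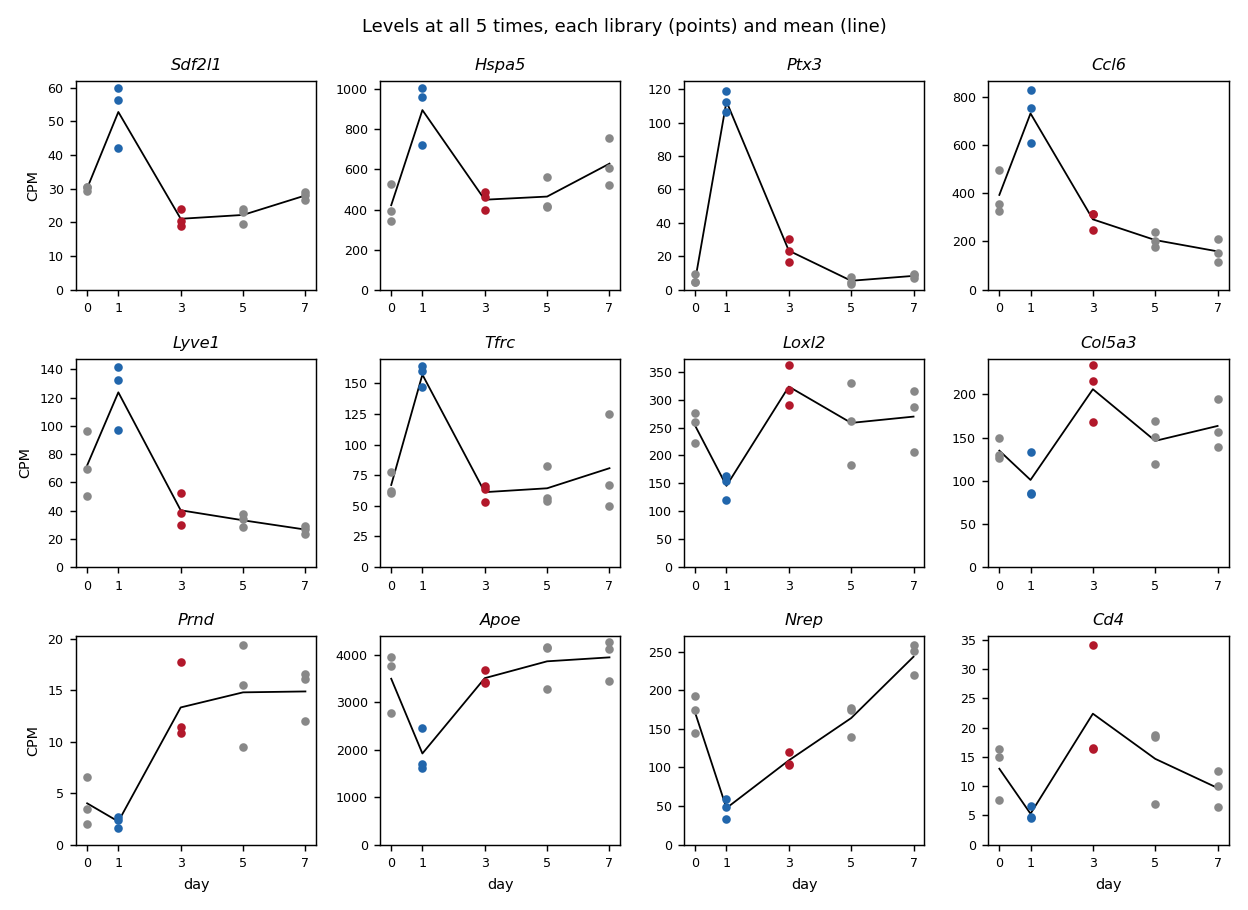
CPM of 12 genes at day 0, 1, 3, 5 and 7 (points are libraries, day 3 red, day 1 blue, other days grey, and the line joins the means). Day 1 is the highest mean for Sdf2l1, Hspa5, Ptx3, Ccl6, Lyve1 and Tfrc and the lowest for Loxl2, Col5a3, Prnd, Apoe, Nrep and Cd4.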

How the data were processed

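RNA of mouse skin was sequenced as mRNA libraries, and the values used are estimated counts per gene deposited by the authors. The submitters' processing notes name kallisto 0.43. Its index, annotation and build, how transcripts became genes, and any use of strand were not given in the sources used. Each table held 30307 rows, of which 26 bearing calendar dates in place of gene names were left out. Estimated counts were rounded to whole numbers. All 15 libraries were fitted with their 5 times as groups in edgeR 4.0.16 (R 4.3.3, limma 3.58.1): a filter on expression with a minimum count of 10, TMM scaling, the robust quasi-likelihood test of day 3 over day 1, and Benjamini-Hochberg adjustment over 17136 genes with a threshold of 0.05. Errors are the SE of the log2 fold change or the SD over 3 libraries. The test was checked on simulated data. DESeq2 1.42.0, other scaling, no filter, a replicate block and fits to 6 and to 12 libraries were alternatives. So was leaving out each day 3 or day 1 library in turn.

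Named genes were, per direction, the 15 that were called, or had the smallest p, among genes with a 2-fold difference, a mean of at least 5 CPM in the higher group and no overlap, then the 2 members of each list with the smallest p, then genes followed throughout. Other genes named, all of the endoplasmic reticulum except Sdf2l1 among them, were chosen after their values were seen, and some genes that the rule names are not reported here. The comparison, the lists and the genes followed were chosen with earlier results of these data known. The lists of the endoplasmic reticulum, lysosome, proteasome, collagens, imprinted genes and metal handling, and the promoter search, were added after the values of this comparison were seen.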

Additional observations from a re-analysis of the deposited data

How the results depend on the processing

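The number of calls depended on the fit, while Sdf2l1 was lower in every alternative run. Genes called higher and lower numbered 209 and 261 with DESeq2 and 404 and 427 in the 12-library fit, against 0 and 1 over 15 libraries. With DESeq2's size factors in edgeR, and with no filter, they numbered 0 and 1, and in the 6-library fit 0 and 2. With the replicate number as a block they numbered 0 and 4 (Ccl6, Lyve1, Ptx3 and Sdf2l1). The deviations of libraries with the same number correlated at 0.25, -0.13 and 0.15, and those with different numbers at -0.27 to 0.17. With 3 libraries a time these values cannot decide whether the numbers pair the samples. Leaving out the 6 day 3 and day 1 libraries in turn gave 0 to 12 genes higher and 0 to 17 lower. The most came when day 1 replicate 3 was omitted, and 0 when day 3 replicate 1 or 3 was. Genes without overlap numbered 2599 to 3490 above and 2682 to 3722 below, where fewer libraries must be cleared. Libraries of the other times were not left out singly. Log2 fold changes near 0 took both signs when single libraries were left out, and the cause was not tested: Ccl8 (-0.17 to 0.24), Cd207 (-0.30 to 0.31), Dcn (-0.24 to 0.15), Flt1 (-0.20 to 0.13), Herpud1 (-0.15 to 0.060), Irf7 (-0.46 to 0.20), Lum (-0.20 to 0.27) and Vegfa (-0.057 to 0.065). Estimated counts carry no measure of mapping uncertainty here.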

Other observations

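Lysosomal genes were higher at day 3 beside the macrophage genes. Of 38 enzymes and membrane proteins of the lysosome, listed after the values were seen, 22 had all day 3 libraries above all day 1 libraries. Only 1, Gla, had them all below, where the shares over all genes were 11.6% above and 13.2% below. The 12-library fit called 13 higher (2.34% of all genes), DESeq2 called 3 (1.22%) and the 15-library fit 0. Glb1, the lysosomal beta-galactosidase, had 53.3, 48.0 and 54.4 CPM at day 3 and 28.02, 31.0 and 34.4 CPM at day 1 (edgeR adjusted p = 0.168, and 0.00793 in the 12-library fit). Lipa, the lysosomal lipase, averaged 143 ± 26.3 CPM at day 3 and 76.5 ± 13.1 CPM at day 1 (SD, n = 3 each). The summed level of the 18 macrophage markers was 8915 to 9686 CPM at day 3 and 5446 to 7460 CPM at day 1, and its part in the lysosomal levels was not tested.

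Genes of zinc and iron handling were lower. Of 12, also listed afterwards, 8 had all day 3 libraries below (background 13.2%) and 0 above (background 11.6%). The metallothionein Mt2, which binds zinc, had 272, 155 and 126 CPM at day 3 and 970.3, 821 and 509.6 CPM at day 1 (edgeR adjusted p = 0.270, and 0.0131 in the 12-library fit), and Mt1 was 3.05-fold lower. The zinc and iron transporter Slc39a14 and the iron store Fth1 were 2.51-fold and 1.47-fold lower. Of 39 proteasome subunits, listed afterwards too, 22 had all day 3 libraries below and 0 above, beside the same background. The amounts were small, with a median of -0.19 on the log2 scale.

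Of 12 imprinted growth genes, listed after the values were seen, 6 had all day 3 libraries above (background 11.6%) and 0 below (background 13.2%). Mest had 46.0, 104 and 32.4 CPM at day 3 and 10.7, 6.12 and 16.1 CPM at day 1, with day 3 replicate 2 far above the others (edgeR adjusted p = 0.149, and 0.0327 in the 12-library fit). Peg3 was more even, with 37.96, 40.6 and 36.4 CPM at day 3 and 25.3, 16.4 and 19.9 CPM at day 1. Of 43 collagen chains, also listed afterwards, 15 had all day 3 libraries above and 0 below, beside the same background. Among the 43, Col15a1 of vessel and nerve basement membranes was 1.97-fold higher.

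The pseudogene Rpsa-ps10 had 755 CPM in day 1 replicate 3 and under 2 CPM in the other 5 libraries of the comparison. Gm12918 had 70.3 CPM in day 3 replicate 2 and 0 in the other 5.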
